A study of Mus musculus with 3 samples.

Results

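The genes described here encode the DNA topoisomerase II enzymes (Top2a and Top2b), the subunits of condensin I (Smc2, Smc4, Ncapd2, Ncaph and Ncapg) and the ring of cohesin (Smc1a, Smc3 and Rad21). They were listed by name, with no threshold on ChIP values but with earlier results of these data known, and number 10 of the 21951 protein-coding genes in GENCODE M21, all found in the annotation by symbol. To examine which genes NF-Y occupies during early corticogenesis, the study made 3 libraries from mouse cortices at E13.5: NF-Y-ChIP with an antibody against the NF-YC subunit, H3K4me3-ChIP as a mark of active promoters, and the input chromatin. The 733 peaks of NF-Y-ChIP and the 18816 peaks of H3K4me3-ChIP were analysed, and both peak lists rest on 1 library each. The names of the lists do not give the antibody, and they were told apart as described in the processing. No treatment was part of the ChIP-seq, and the genotype and the number of pooled embryos of these libraries are not given in the sources used here. Each value is therefore given without a replicate error, and no comparison has a p-value. The p-values and q-values quoted for single peaks are those of the authors' peak caller, which compare a peak with its local background and not replicates with each other. Since reads per peak are not in the lists, a missing peak means that none was called at this unknown depth. The cortex at this age holds dividing progenitors and young neurons, so fewer cells carrying a mark and a weaker mark per cell cannot be told apart.

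NF-Y is a trimer of NF-YA, NF-YB and NF-YC that recognises the CCAAT box, a promoter element that reads ATTGG on the opposite strand. Topoisomerase II passes one DNA duplex through a break in another and so untangles sister chromatids. Top2a is the form of dividing cells, whereas Top2b is also present in cells that have left the cell cycle, neurons included. Condensin is a ring built on Smc2 and Smc4 that loops and compacts chromosomes for mitosis, and Ncapd2, Ncaph and Ncapg are the non-SMC subunits of condensin I. Cohesin, in which Rad21 closes the heterodimer of Smc1a and Smc3, holds sister chromatids together and forms chromatin loops in dividing and non-dividing cells.

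The sequences at the NF-Y-ChIP summits and the promoter CCAAT boxes of the 10 genes are shown so that genes with and without a peak can be compared, and each is printed 5′ to 3′ on the strand of its gene with CCAAT or ATTGG in capitals (RefSeq's GRCm38 genome). Positions are offsets from the start site, which is the 5′ end of the principal transcript, and are negative upstream. The first pair are the upstream sequences of the topoisomerase II genes, Top2a on the minus strand at chr11:99024200-99024439 (−250 to −11) and Top2b on the plus strand at chr14:16365049-16365178 (−130 to −1).
Top2a: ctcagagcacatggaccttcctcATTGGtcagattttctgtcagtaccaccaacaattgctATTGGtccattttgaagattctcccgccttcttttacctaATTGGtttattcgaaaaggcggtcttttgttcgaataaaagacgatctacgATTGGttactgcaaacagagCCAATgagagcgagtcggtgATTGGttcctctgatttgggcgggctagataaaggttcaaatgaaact
Top2b: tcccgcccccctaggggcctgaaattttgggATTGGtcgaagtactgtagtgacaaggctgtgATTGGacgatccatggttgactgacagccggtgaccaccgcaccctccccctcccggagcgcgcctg
The next pair are the 101 bp around the NF-Y-ChIP summits of Ncaph, minus strand, at chr2:127133640-127133740, and Smc3, plus strand, at chr19:53600073-53600173.
Ncaph: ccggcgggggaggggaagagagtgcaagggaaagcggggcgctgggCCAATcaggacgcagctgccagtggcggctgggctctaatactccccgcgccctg
Smc3: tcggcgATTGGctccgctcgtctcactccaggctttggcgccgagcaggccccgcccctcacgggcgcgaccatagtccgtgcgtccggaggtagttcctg
The last set holds the promoter boxes, with 10 bp to each side, of the other members, which had a box but no NF-Y-ChIP peak. They lie at chr4:52439092-52439116 (Smc2), chr3:69004630-69004654 (Smc4), chr6:125191749-125191773 and chr6:125191720-125191744 (Ncapd2, minus strand), chr5:45669739-45669763 (Ncapg), chrX:152016399-152016423 (Smc1a) and chr15:51991972-51991996 and chr15:51991879-51991903 (Rad21, minus strand).
Smc2: ctcctaccttCCAATattaaaacta
Smc4: ggaaggtgttATTGGgcaacttgga
Ncapd2, first box: cggggctgtgATTGGttggcttctc
Ncapd2, second box: ctctgtcgcgATTGGcctcctggca
Ncapg: accttttcctATTGGgagagcggca
Smc1a: ggaaatcgtgATTGGcttggactta
Rad21, first box: aagttaaaccCCAATtagttacacg
Rad21, second box: tgctccgtggCCAATaggtggctgg

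By the rule of the study, under which a peak belongs to a gene when it is inside it or up to 5 kb upstream, 3 of the 10 genes had an NF-Y-ChIP peak: Top2a, Ncaph and Smc3. Over all protein-coding genes the same rule gave 810, or 3.69%. The Wilson 95% confidence interval of the members' share was 10.8 to 60.3%, which covers counting error only and is wide because the list is short. Since the list was drawn up with results of these data known, this share describes these 10 genes and is not independent evidence on the gene class. Each class of machine had 1 such gene, that is 1 of 2 topoisomerase II genes, 1 of 5 condensin genes and 1 of 3 cohesin genes. All of the 10 genes had an H3K4me3-ChIP peak by the same rule, against 65.4% of protein-coding genes, and among genes with such a peak 5.6% also had an NF-Y-ChIP peak. Both kinds of peak together were present at the 3 genes and at 3.66% of protein-coding genes. Counted instead by summits no more than 1 kb from the 5′ end of any transcript of the gene, the members were the same 3 for NF-Y-ChIP and all 10 for H3K4me3-ChIP, against 3.17% and 62% of protein-coding genes. The 3 NF-Y-ChIP peaks were of unequal strength and lay at different places relative to the start site.

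**Figure D1:**
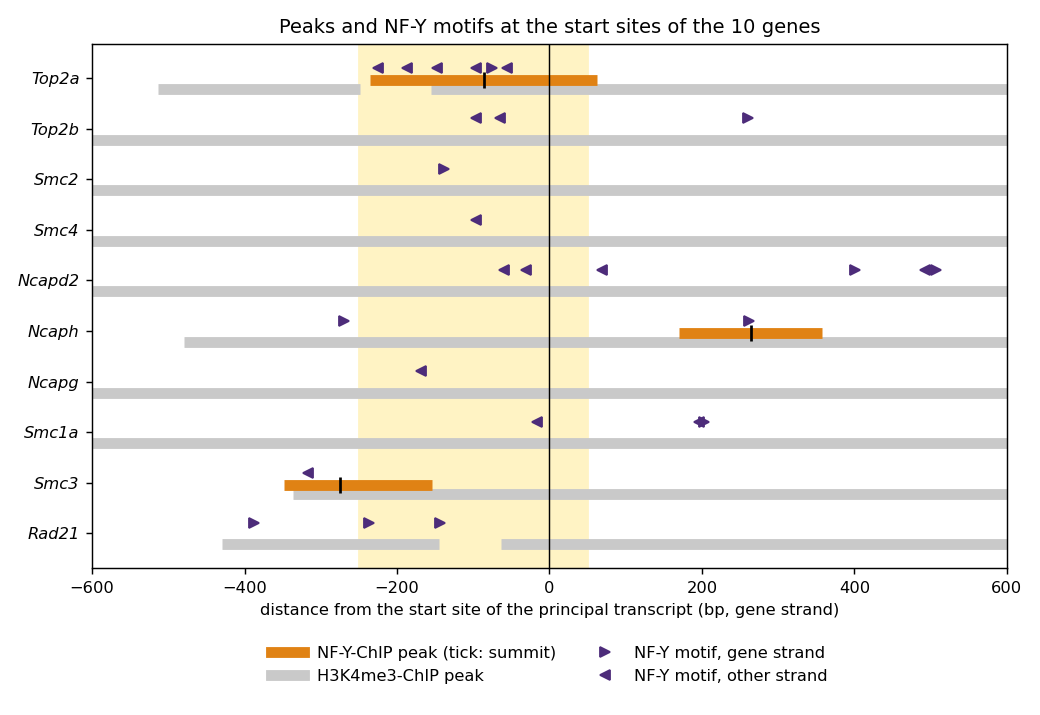
Peaks and NF-Y motifs within 600 bp of the start sites of the 10 genes, one row per gene, with the distance from the start site in bp on the horizontal axis (upstream to the left). Orange bars are NF-Y-ChIP peaks with a tick at the summit, grey bars are H3K4me3-ChIP peaks (clipped at the edges of the plot), purple arrowheads are CCAAT boxes pointing along the strand that reads CCAAT, and the yellow band runs from 250 bp upstream to 50 bp downstream. Top2a has 6 boxes under its NF-Y-ChIP peak, the peaks of Ncaph and Smc3 each lie over 1 box outside the band, and 7 genes have boxes in the band with no NF-Y-ChIP peak.

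Top2a (ENSMUSG00000020914.17, chr11:98992943-99024189, minus strand) had one of the strongest NF-Y-ChIP peaks of the whole list. The peak ran from 99024126 to 99024425 on chromosome 11, had a fold enrichment of 24.2 over the local background and ranked 8 of 733, where the median peak had a fold enrichment of 6.75. The −log10 of its p-value was 61.0, against a median of 11.4 in the list. Its summit lay at −86 from the start site, and the peak reached from −236 into the first exon, which held 64 of its 300 bp.

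The Top2a peak covered a cluster of CCAAT boxes. In the window from 250 bp upstream to 50 bp downstream of the start site, Top2a had 6 boxes, at −227, −189, −149, −98, −78 and −58, and all 6 were inside the NF-Y-ChIP peak. Of these, the box at −78 reads CCAAT on the gene strand and the other 5 read ATTGG. Neighbouring boxes were spaced by 38, 40, 51, 20 and 20 bp. The summit fell between the boxes at −98 and −78, whose centres were each 10 bp from it. Such clusters were rare, since 15 of 21848 protein-coding promoters (0.0687%) had 6 or more boxes in this window. Inside NF-Y-ChIP peaks the median number of boxes was 2, and 19 of 733 peaks (2.59%) held 6 or more.

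**Figure D2:**
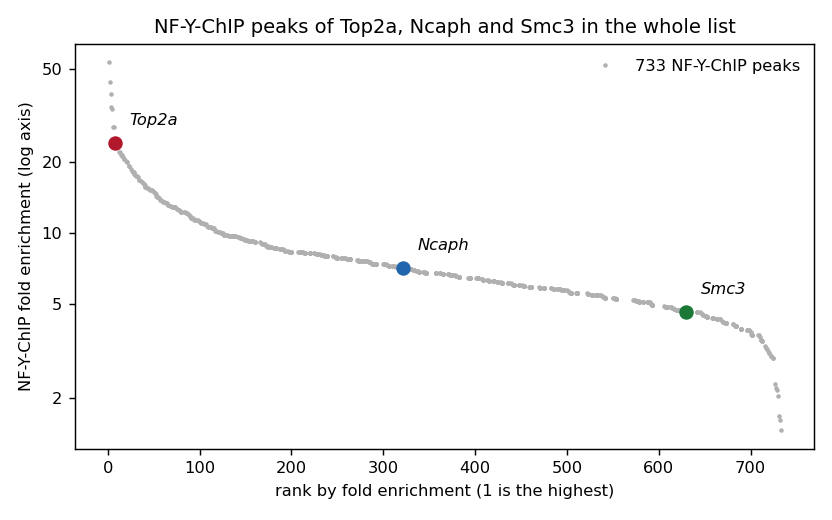
NF-Y-ChIP fold enrichment (vertical, log axis) against its rank in the list of 733 peaks (horizontal), with the peaks of Top2a, Ncaph and Smc3 marked in the colours of topoisomerase II (red), condensin (blue) and cohesin (green). Top2a, at 24.2-fold, stands at rank 8 in the steep upper end, Ncaph at 7.14-fold near the middle and Smc3 at 4.64-fold in the lower part.

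Ncaph (ENSMUSG00000034906.15, chr2:127103809-127133954, minus strand) encodes the kleisin subunit that closes the condensin I ring, and its NF-Y-ChIP peak lay inside the gene. The peak, from 127133597 to 127133784 on chromosome 2, had a fold enrichment of 7.14 and ranked 322. Its summit was 264 bp downstream of the start site, and none of the peak overlapped an exon of the principal transcript, so it was placed in the first intron. The sequence printed above holds 1 box, CCAAT at 260, whose centre was 2 bp from the summit. The promoter window of Ncaph from 250 bp upstream to 50 bp downstream held no CCAAT box, and the nearest upstream box, at −272, was outside the peak.

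Smc3 (ENSMUSG00000024974.10, chr19:53600398-53645833, plus strand), one of the SMC arms of cohesin, had the weakest of these peaks. The peak ran from 53600050 to 53600244 on chromosome 19 with a fold enrichment of 4.64, rank 630 of 733, and a −log10 q-value of 2.25. The summit was at −275, and the box in the sequence above, ATTGG at −319, had its centre 42 bp from it. Within 25 bp of its summit Smc3 therefore had no box, whereas Top2a and Ncaph did. Smc3 also had no box in the window from 250 bp upstream to 50 bp downstream. By the 5 kb rule the same peak was assigned to AC137853.1, an annotated transcript on the opposite strand that begins 987 bp away.

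All of these NF-Y-ChIP peaks had a box within 50 bp of the summit, as did 88.3% of the NF-Y-ChIP peaks on the nuclear chromosomes, and all overlapped an H3K4me3-ChIP peak, as did 88.0% of all 733 NF-Y-ChIP peaks. The overlap took up 219 of 300 bp at Top2a, 188 of 188 bp at Ncaph and 184 of 195 bp at Smc3. The 3 summits were inside the H3K4me3-ChIP peak, against 81.2% of all NF-Y-ChIP summits.

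The other 7 genes had CCAAT boxes in the promoter window but no NF-Y-ChIP peak. In total 8 of the 10 genes had a box from 250 bp upstream to 50 bp downstream, against 38.6% of protein-coding promoters and 37.7% of those marked by H3K4me3-ChIP. Of the 8, Top2a had an NF-Y-ChIP peak. Top2b (ENSMUSG00000017485.11, chr14:16365179-16435462, plus strand), the counterpart of Top2a, had boxes at −99 and −67, which are 32 bp apart and both read ATTGG on the gene strand. Ncapd2, a HEAT-repeat subunit of condensin I, had boxes at −62 and −33, and Rad21, the kleisin of cohesin, at −239 and −146. Exactly 2 boxes were present in 8.67% of protein-coding promoters. For Ncapd2 the count depends on the annotated start, since a further box lies at 67 and RefSeq places the start 115 bp downstream. Smc2, Smc4, Ncapg and Smc1a had 1 box each, as 26.2% of promoters did, at −141, −98, −170 and −19. Of the 16 boxes in the promoter windows of the 10 genes, 12 read ATTGG on the gene strand and 4 read CCAAT.

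The bases beside a box also differed among these genes. With the box required to read ACCAATC or ACCAATG or GCCAATC or GCCAATG on either strand, 8 of the 16 boxes qualified, in 4 genes: Top2a, Top2b, Ncapd2 and Smc1a. Over all protein-coding promoters 19.3% held this longer motif. Top2a had 4 such boxes and Ncapd2 had both of its own. The boxes under the peaks of Ncaph and Smc3, outside the promoter window, carried it as well. The boxes of Smc2, Smc4, Ncapg and Rad21 did not.

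From these 7 genes the nearest NF-Y-ChIP summit was far away. It was 40.1 kb downstream of the start site for Smc4, 219.6 kb upstream for Ncapg and 361.6 kb downstream for Ncapd2. For Smc2, Top2b, Smc1a and Rad21 it was 2911, 3054, 10719 and 13691 kb away. Extending the rule to 50 kb upstream added none of them, while the share of all protein-coding genes with a peak rose to 6.61%.

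The number of boxes was set beside NF-Y-ChIP over the 13123 protein-coding promoters marked by H3K4me3-ChIP at no more than 1 kb from the start site, where an NF-Y-ChIP summit in the same range was present at 4.85%. The share was 0.953% with no box (Wilson 95% confidence interval 0.765 to 1.19%), the class of Ncaph and Smc3. It was 4.83% with 1 box (4.13 to 5.64%) and 15.9% with 2 boxes (14.0 to 18.1%). By the GENCODE start sites, these are the classes of the 7 genes without an NF-Y-ChIP peak. With 6 or more boxes, 12 of 14 promoters (85.7%, 60.1 to 96.0%), Top2a among them, had an NF-Y-ChIP summit. A promoter with 1 or 2 boxes thus mostly had no called peak, and the lack of a peak at these 7 genes was the common state of their classes. These intervals treat promoters as independent draws, which they are not, and cover counting error alone.

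**Figure D3:**
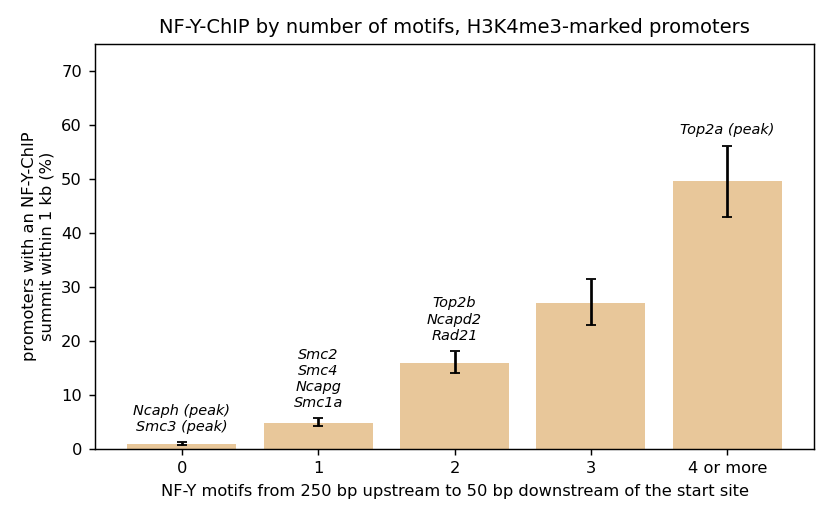
Percent of H3K4me3-marked protein-coding promoters whose start site had an NF-Y-ChIP summit no more than 1 kb away (vertical), by the number of CCAAT boxes from 250 bp upstream to 50 bp downstream (horizontal). Bars are shares, error bars are Wilson 95% confidence intervals, and the 10 genes are written above their class, with "peak" after those that had an NF-Y-ChIP peak; the share rises from 0.953% with no box to 49.5% with 4 or more.

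The strongest H3K4me3-ChIP peak within 1 kb of each start site ranged from 32.5-fold to 84.9-fold, with a median of 48.8. A peak within this distance was found for 60% of protein-coding genes, 13124 in number. The median of their strongest peaks was 39.7. Rad21 had the highest value, 84.9-fold, rank 26 of all 18816 peaks and percentile 99.8 among those genes. Smc3 followed at 64.8-fold (percentile 90.2), and Smc1a, on chromosome X, had the lowest value of the 10 at 32.5-fold (percentile 37.3). The cohesin genes therefore held both ends of the range.

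Among the condensin genes, Ncaph was at 59.3-fold and Smc4 at 58.1-fold, above Ncapg at 39.9-fold, Ncapd2 at 38.4-fold and Smc2 at 33.9-fold. Top2a and Top2b had nearly the same H3K4me3-ChIP value, 49.8-fold and 47.8-fold, although NF-Y-ChIP called a peak at one and not at the other. With 1 library, neighbours in this order cannot be shown to differ. The 3 genes with an NF-Y-ChIP peak were at 64.8, 59.3 and 49.8. Of the other 7, Rad21 at 84.9 stood above all 3, Smc4 at 58.1 stood between Ncaph and Top2a, and the remaining 5 were below, from 32.5 to 47.8. The groups overlapped, and the difference was not tested.

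**Figure D4:**
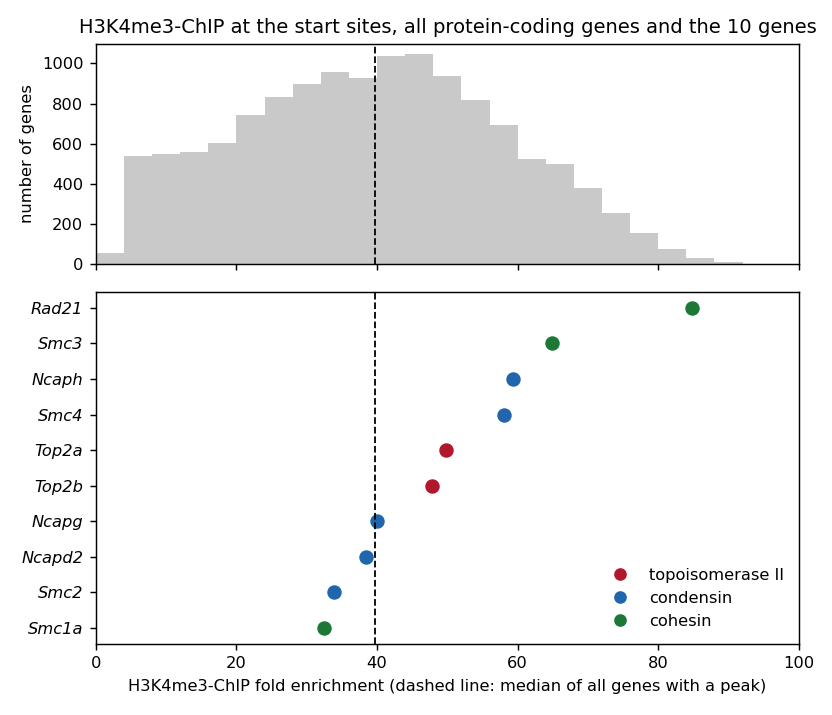
H3K4me3-ChIP fold enrichment (horizontal) of the strongest peak within 1 kb of the start site, as a histogram over the 13124 genes that had one (top) and for each of the 10 genes (bottom, coloured by complex), with the dashed line at the median of all genes, 39.7. Rad21 at 84.9 is far to the right, and Ncapd2, Smc2 and Smc1a are left of the line.

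In all 10 genes the strongest H3K4me3-ChIP summit lay downstream of the start, from 112 bp at Smc2 to 657 bp at Smc4. The same held for 84.5% of all genes compared. The peaks of Smc4 and Top2b were broad, at 2985 and 2850 bp (percentiles 95.8 and 95.0), against a median width of 1404 bp. At Top2a and Rad21 a second, weak H3K4me3-ChIP peak stood upstream of the main one, at 3.82-fold and 4.20-fold. Of all genes with a peak, 6.73% had 2 or more within 1 kb of the start site. The gap between the paired peaks was 93 bp at Top2a, from −248 to −156, and held the boxes at −227 and −189. At Rad21 the gap was 80 bp, from −144 to −65, and the box at −146 ran across its upstream edge.

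Several of these start sites face another gene. Mrpl51, a mitochondrial ribosomal protein gene, begins 100 bp from Ncapd2 on the opposite strand, Ribc1 begins 133 bp from Smc1a, and Ift80, an intraflagellar transport gene, begins 168 bp from Smc4. The antisense transcript Smc2os begins 278 bp from Smc2, and 1600023N17Rik begins 211 bp from Ncapg. None of these neighbours had an NF-Y-ChIP peak by the 5 kb rule, and each shared the H3K4me3-ChIP peak of its partner, so the strength of that peak cannot be divided between them. By the GENCODE start sites, each of these 5 neighbours begins upstream of its partner on the opposite strand, and the promoter boxes lie between the start sites. In RefSeq, which also holds predicted transcripts, the boxes of Smc4 and Ncapd2 lie within an exon, so for these genes the placement upstream of both partners depends on the annotation.

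A second promoter element, the cell cycle genes homology region (CHR), is known for recruiting MuvB complexes to genes expressed in G2 and M phase, and its core TTTGAA was searched on both strands of the same windows. It was present in 6 of 10 genes, Top2a, Smc2, Smc4, Ncapd2, Ncapg and Rad21, against 15.7% of all protein-coding promoters and 10.8% of those with an H3K4me3-ChIP peak. In each of the 6 genes at least 1 match lay within 30 bp of the start site. The nearest began at −23 in Top2a (reading ttcaaa near the end of the sequence above), 4 in Smc2, −7 in Smc4, −8 in Ncapd2, −24 in Ncapg and −16 in Rad21. Within 30 bp to each side of the start site, a width chosen after these positions were seen, 2.33% of protein-coding promoters held the core. The group comprised 4 of the 5 condensin I genes, without Ncaph, together with Top2a and Rad21. Top2b, Ncaph, Smc1a and Smc3 had no match in the window. The distances depend on the annotated start. The RefSeq promoter set, which holds 8 of the 10 genes and lacks Smc4 and Rad21, places the start of Ncapd2 115 bp downstream of the GENCODE start and that of Smc2 at −22 from it. By the RefSeq starts, Top2a and Ncapg had the core within 30 bp, Smc2 and Ncapd2 did not, and Smc4 and Rad21 were not examined. A match shows letters in the reference, not binding.

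Other elements were searched in the same windows. GGGCGG, the GC box of Sp1-type factors, was present in 8 of 10 genes, against 45.3% of all promoters and 67.1% of those with H3K4me3. The E2F-type cores TTCGCGC and TTGGCGC were present in 0 and 1 of the 10 genes (1.95% and 3.09% of promoters). The 1 gene was Ncaph, with TTGGCGC at 41. Outside this window, the NF-Y-ChIP peak of Smc3 held GGGCGG at −274 and TTGGCGC at −291. Their centres were 3 and 13 bp from its summit, nearer than the 42 bp of its CCAAT box. Whether they bear on the peak was not tested. The GC content of the windows ran from 47.7% at Top2a to 65.3% at Ncapd2 and Smc3.

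The same rule was applied to 34 other genes of chromosome topology, listed by function: condensin II, the remaining cohesin subunits, cohesin loading, release and acetylation factors, separase, securin and shugoshins, the SMC5/6 complex, the other topoisomerases, Smchd1 and Ctcf. None of the 34 had an NF-Y-ChIP peak, and a count of 0 among 34 allows a share of up to 10.2% (Wilson upper limit), which includes the 3.69% of all protein-coding genes. An H3K4me3-ChIP peak was present at 32 of them, against 65.4% of all protein-coding genes. The remaining 2 were Rec8 and Rad21l, the kleisins of meiotic cohesin. The rule does not require a peak over the start site, and at Stag3 the nearest peak ran from −1722 to −344. Of the 34 genes, 14 (41.2%) had a CCAAT box in the promoter window, near the 38.6% of all protein-coding promoters. By group these were 4 of 4 genes of cleavage and protection (Espl1, Pttg1, Sgo1 and Sgo2a), 4 of 6 cohesin genes, 4 of 9 genes of loading, release and acetylation, 1 of 6 SMC5/6 genes and 1 of 4 other topoisomerases. The 3 condensin II genes, Smchd1 and Ctcf had none. The highest number of boxes among the 34 was 3, in Pttg1, which encodes securin, and in Rec8. TTTGAA within 30 bp of the start site was present in 3 of the 34 (8.82%), against 2.33% of all protein-coding promoters, at the width chosen after the positions in the 10 genes were seen. These were Ncapg2 of condensin II, Espl1, which encodes separase, and Smchd1.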

How the data were processed

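ChIP-seq libraries of E13.5 mouse cortices comprised input, NF-Y-ChIP and H3K4me3-ChIP, 1 each. Per the methods, reads were quality-trimmed (Trimmomatic), mapped to mm10, which is GRCm38 (Bowtie2 2.2.8), and passed to MACS2 2.1.2. Peaks of the NF-YC antibody were kept by p-value (threshold 0.001). Those of the H3K4me3 antibody were kept by q-value (threshold 0.05). Tool versions come from the submitters' processing notes. The deposited lists give positions, fold enrichment (ratio to the local background), −log10 p-values and q-values, and a score. Names of the lists do not state the antibody. One list was taken as NF-Y-ChIP because its deposited score followed the p-value (in 733 of 733 peaks the score was 10 times −log10 p without decimals), and the other as H3K4me3-ChIP because it followed the q-value (18816 of 18816), as the thresholds require. The H3K4me3-ChIP list is shorter than the count of regions given in the study, although its peaks are numbered without a gap, and ranks and shares refer to the list used here. Values were used as deposited. Read depth is unknown. Input was not analysed here.

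Peaks were assigned by the 5 kb rule to GENCODE M21 genes. Start sites were those of APPRIS principal transcripts, else the most upstream basic protein-coding transcript. Overlap counted from 1 bp. Motifs were searched on both strands of GRCm38. The named genes were the 10 members, related genes with an NF-Y-ChIP peak, and genes that begin within 1 kb of a member or share its NF-Y-ChIP peak. Rad21l and the other related genes named outside this rule were named after their values were seen. The members and lists were chosen with earlier results of these data known. Alternatives covered thresholds, distance rules, overlap, windows, motif, start sites and ranking. Functions were tested on simulated data. Computations ran in Python 3.11.15 with pandas 2.3.3, NumPy 2.4.6 and matplotlib 3.10.9.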

Additional observations from a re-analysis of the deposited data

How the results depend on the processing

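Of 29 alternatives to the settings used, 27 kept the value or moved a count by at most 1.5 times. With the longer motif in place of the CCAAT core, 4 genes instead of 8 had a box in the promoter window. Ranked by p-value in place of fold enrichment, the median rank of the 3 NF-Y-ChIP peaks was 392 instead of 322. Leaving out peaks with fold enrichment under the median of the list left Top2a and Ncaph with an NF-Y-ChIP peak and removed Smc3, while the share of all protein-coding genes with one fell from 3.69% to 1.94%. A wider window, from 500 bp upstream to 100 bp downstream, held a box in all 10 genes, but also in 57.6% of all promoters. No NF-Y-ChIP peak was assigned to the 34 related genes under any of the 5 alternatives run. By RefSeq start sites, a choice made after the positions were seen, 2 of the 8 genes in that set (Top2a and Ncapg) had TTTGAA within 30 bp, against 6 of 10 by GENCODE. No paired analysis was possible because each antibody has 1 library, and for the same reason no library could be left out. Depth is unknown, so peaks too weak to be called cannot be told from absent ones.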
